A study of Mus musculus with 2 samples.

Results

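Long intergenic noncoding RNA (lincRNA) genes are transcribed from their own promoters, away from protein-coding genes, and their RNAs are usually spliced and polyadenylated but hold no long open reading frame. The regions described here are the ATAC-seq peaks at the starts of such genes in mouse embryonic stem cells (mESCs). A peak was taken when its summit lay on chromosomes 1 to 19, within 500 bp of the start of a gene that GENCODE release 21 (mm10) types as lincRNA, and more than 1000 bp from every protein-coding start. Of the 116782 peaks in the list, 842 met this rule, at 848 lincRNA genes. They are called lincRNA-start peaks below. Another 232 peaks lay within 500 bp of a lincRNA start but too close to a protein-coding start and were left out.

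The cells were EHMT2-dTAG-mcherry mESCs, a KH2-derived BL6/129 hybrid line in which Ehmt2, the gene of an H3K9 methyltransferase, carries the FKBP12F36V degron with HA tags at its end, followed by a P2A-linked nuclear mCherry. They had DMSO for 24 h, the vehicle without the degrader, so the tagged EHMT2 was not depleted. The 2 samples are 2 independent clones of 50000 cells each, grown in serum and LIF on mitotically inactive mouse embryonic fibroblast feeders, with 3 technical replicates per sample merged by the authors. One peak list holds both clones together, so no spread between clones could be computed, no test was made between conditions, and every interval below covers counting error only. Summits lay within 500 bp of the start for 8 of 10 pluripotency genes, including Pou5f1, Sox2, Nanog and Zfp42 but not Esrrb and Tdgf1. They did so for 3 of 10 fibroblast genes, Thy1, Twist1 and Prrx1. Among all protein-coding starts, 58.5% had such a summit. The median fold enrichment of these peaks was 6.11 (2.83 to 15.9) at the pluripotency genes and 5.45 (2.68 to 6.59) at the fibroblast genes. The part that feeder cells had in any lincRNA-start peak was not tested.

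ATAC-seq cuts accessible DNA with the Tn5 transposase, and promoters in use are usually accessible over a short stretch because nucleosomes are displaced there. Many mammalian promoters lie in CpG islands, stretches that have kept the CG dinucleotides lost from most of the genome, while many lincRNA promoters do not. Some lincRNA starts derive from transposable elements or from copies of other genes, and the sequences below were chosen to show both unique and copied starts.

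The highest lincRNA-start peaks included a set of related starts on chromosome 17 that resemble the start of Zfp97, a zinc finger protein gene. The 250 bases just before each start (mm10, gene strand, 5′ to 3′) are shown because all 4 starts had a peak, with fold enrichments of 16.2 to 23.2. They are chr17:17121165-17121414 (plus strand) for Zfp97, chr17:17294193-17294442 (plus strand) for Gm6712, chr17:16951289-16951538 (plus strand) for BC002059 and chr17:17234622-17234871 (plus strand) for Gm5165. Capitals mark CCAAT, the CCAAT box, and TTCCGGA, which holds the core of an ETS factor site. These 7 letters, like the choice of Gm5165 and Zfp97, were picked after the sequences were seen.
Zfp97: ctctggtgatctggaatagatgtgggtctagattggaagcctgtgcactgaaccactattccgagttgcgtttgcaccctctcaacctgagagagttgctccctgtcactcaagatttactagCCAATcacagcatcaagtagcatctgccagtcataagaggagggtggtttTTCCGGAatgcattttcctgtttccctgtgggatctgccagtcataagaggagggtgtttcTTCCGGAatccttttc
Gm6712: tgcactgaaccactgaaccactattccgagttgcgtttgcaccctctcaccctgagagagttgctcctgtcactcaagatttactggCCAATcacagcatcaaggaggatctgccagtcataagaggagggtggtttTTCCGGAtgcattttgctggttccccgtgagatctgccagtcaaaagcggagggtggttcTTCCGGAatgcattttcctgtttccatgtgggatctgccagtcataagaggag
BC002059: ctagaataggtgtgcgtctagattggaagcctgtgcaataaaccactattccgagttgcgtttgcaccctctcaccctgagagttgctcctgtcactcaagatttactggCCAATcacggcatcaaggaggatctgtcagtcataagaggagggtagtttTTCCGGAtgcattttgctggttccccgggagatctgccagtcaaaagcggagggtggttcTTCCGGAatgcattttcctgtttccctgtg
Gm5165: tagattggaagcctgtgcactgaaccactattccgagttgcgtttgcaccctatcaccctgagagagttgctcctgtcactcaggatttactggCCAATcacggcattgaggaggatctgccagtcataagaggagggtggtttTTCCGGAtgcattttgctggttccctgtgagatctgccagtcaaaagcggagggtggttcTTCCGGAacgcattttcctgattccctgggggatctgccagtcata
Each of the 4 windows held 1 CCAAT and 2 copies of TTCCGGA, and all 4 starts had a peak. The summit lay inside the printed window only for Gm5165, 39 bp upstream of the start. For Zfp97, Gm6712 and BC002059 it lay 271, 309 and 285 bp upstream, before the printed bases, so the marked words do not lie at those summits.

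A second set was spread over several chromosomes and resembled the start of Zfp932, another zinc finger gene. The 200 bases before each start are chr5:109996321-109996520 (plus strand) for Zfp932, chr6:149565890-149566089 (plus strand) for Gm21814, chr8:129263441-129263640 (plus strand) for Gm32856 and chr10:130542147-130542346 (plus strand) for Gm31793. Capitals mark the longest run shared by all 4 windows, 18 bases that hold a CCAAT box. Gm21814 and Gm32856 had a lincRNA-start peak, and Gm31793, chosen after its values were seen, did not. The nearest summit lay 199 bp upstream of the start for Gm21814, 246 bp for Gm32856 and 530 bp for Gm31793. For Zfp932 it lay 50 bp downstream. Only the Gm21814 summit thus lay in its printed window, at the upstream edge, and the marked run lies at none of these summits.
Zfp932: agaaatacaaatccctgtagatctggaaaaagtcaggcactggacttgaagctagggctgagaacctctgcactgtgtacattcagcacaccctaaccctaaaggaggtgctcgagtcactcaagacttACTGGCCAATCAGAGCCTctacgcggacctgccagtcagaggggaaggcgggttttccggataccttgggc
Gm21814: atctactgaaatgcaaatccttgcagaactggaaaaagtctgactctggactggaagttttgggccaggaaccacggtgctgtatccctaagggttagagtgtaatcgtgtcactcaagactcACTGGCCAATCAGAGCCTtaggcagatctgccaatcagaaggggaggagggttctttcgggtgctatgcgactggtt
Gm32856: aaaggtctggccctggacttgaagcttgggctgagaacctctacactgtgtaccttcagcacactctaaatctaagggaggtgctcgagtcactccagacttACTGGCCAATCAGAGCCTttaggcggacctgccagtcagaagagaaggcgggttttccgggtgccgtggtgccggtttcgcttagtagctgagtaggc
Gm31793: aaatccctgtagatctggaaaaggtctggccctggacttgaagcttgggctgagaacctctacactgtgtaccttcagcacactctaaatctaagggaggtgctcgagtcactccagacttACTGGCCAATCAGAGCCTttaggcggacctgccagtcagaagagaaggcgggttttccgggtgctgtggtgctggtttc

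Outside these copied starts, accessible starts ranged from CpG-rich to nearly CpG-free. The next windows run from 100 bases before to 49 bases after the gene start, with every CG in capitals. They are chr2:119594197-119594346 (plus strand) for 1700020I14Rik, known as Cyrano, chr1:9944069-9944218 (minus strand) for Snhg6, a small nucleolar RNA host gene, chr2:149798694-149798843 (minus strand) for Gm14133 and chr13:4771551-4771700 (plus strand) for Gm5444.
1700020I14Rik: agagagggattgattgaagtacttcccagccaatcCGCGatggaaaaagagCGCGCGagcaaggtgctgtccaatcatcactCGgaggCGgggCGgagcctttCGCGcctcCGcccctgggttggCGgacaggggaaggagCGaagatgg
Snhg6: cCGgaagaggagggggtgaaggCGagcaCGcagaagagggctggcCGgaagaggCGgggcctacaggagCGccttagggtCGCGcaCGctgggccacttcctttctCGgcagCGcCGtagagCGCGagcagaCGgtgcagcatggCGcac
Gm14133: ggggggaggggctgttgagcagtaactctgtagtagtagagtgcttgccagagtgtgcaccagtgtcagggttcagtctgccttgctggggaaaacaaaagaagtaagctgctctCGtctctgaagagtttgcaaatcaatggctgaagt
Gm5444: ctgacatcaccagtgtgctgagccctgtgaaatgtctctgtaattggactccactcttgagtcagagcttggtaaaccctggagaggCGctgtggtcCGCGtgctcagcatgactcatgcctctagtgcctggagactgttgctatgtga
1700020I14Rik held 13 CG and Snhg6 held 16, against 1 in Gm14133 and 3 in Gm5444. Gm14133 and Gm5444 were nevertheless among the 10 highest lincRNA-start peaks.

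Of the 5209 lincRNA genes on chromosomes 1 to 19, 4870 started more than 1000 bp from any protein-coding start. A lincRNA-start peak lay at 846 of these, or 17.4% (95% Wilson interval 16.3 to 18.5), 4022 had no summit within 500 bp, and 2 had only a summit that belonged to a protein-coding start. Of all autosomal bases more than 1000 bp from protein-coding starts, 4.28% lay within 500 bp of a summit, so lincRNA starts lay near a summit more often than bases at large. Protein-coding starts had a summit within 500 bp in 58.5% of 20807 cases. Antisense gene starts away from protein-coding starts had one in 18.3% (16.8 to 19.9, n = 2294). Processed-transcript genes, a class of spliced noncoding genes, had one in 30.3% (26.5 to 34.5, n = 501). Processed pseudogenes, which are copies of mRNAs and carry no promoter along, had one in 7.30% (6.78 to 7.86, n = 8885).

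Summits gathered at the annotated start. Per 1000 lincRNA starts, 29.4 summits fell between 200 and 100 bp upstream, the fullest 100-bp step, against a mean of 5.40 per step between 2000 and 3000 bp on either side. The fullest step was thus 5.44 times the flank for lincRNA starts and 33.1 times the flank for protein-coding starts, where 147 summits per 1000 starts fell in the first 100 bp downstream. The median distance from summit to start was 162.5 bp over the 842 peaks. The summit lay upstream of the start in 448 of them (53.2%, 49.8 to 56.6), in an exon of the lincRNA in 254 and in an intron in 140. Within the rule's limit of 500 bp, 277 summits (32.9%) lay at most 100 bp from the start.

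**Figure D1:**
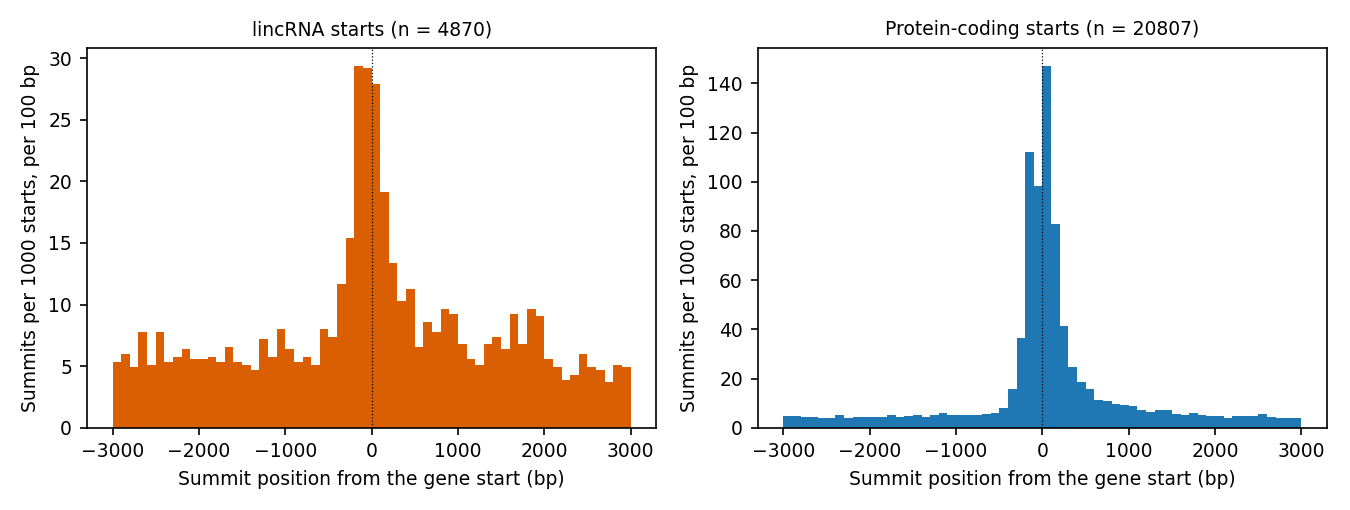
Bars give the number of ATAC summits per 1000 gene starts in steps of 100 bp, from 3000 bp upstream (negative) to 3000 bp downstream of the start, for 4870 lincRNA starts (left) and 20807 protein-coding starts (right), on separate scales. Both rise at the start, lincRNA starts to 29.4 and protein-coding starts to 147.

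Just inside the limit, 10 lincRNA-start peaks with summits 490 to 500 bp away had a median fold enrichment of 4.66 (3.24 to 9.78). Just outside it, the peaks nearest to 6 starts, 501 to 508 bp away, had a median of 3.81 (3.15 to 5.55).

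Starts at which another annotation places the gene at the same site were accessible more often. RefSeq put the start of a gene of the same symbol within 100 bp for 1166 lincRNAs, of which 264 had a peak (22.6%, 20.3 to 25.1). For 497 lincRNAs whose nearest RefSeq start of that symbol was more than 500 bp away, 70 had one (14.1%, 11.3 to 17.4). Of the 2990 with no RefSeq start of the same symbol, 464 had one (15.5%, 14.3 to 16.9).

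Peak height was given as fold enrichment, the authors' ratio of the fragment pileup at the summit to the local background. The lincRNA-start peaks had a median of 4.79 (quartiles 3.57 and 7.25, range 2.40 to 23.2). The median was 3.95 over all 113777 autosomal peaks, 8.497 over 11159 peaks within 500 bp of a protein-coding start and 3.70 over 96764 peaks more than 1000 bp from any gene start. Heights at lincRNA starts were therefore closer to those of peaks away from genes than to those at protein-coding starts. A −log10 q-value of at least 10 was reached by 260 lincRNA-start peaks (30.9%, 27.9 to 34.1), against 21.8% of all autosomal peaks.

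The depth behind these values was low. The number of fragments over the summit, calculated from the fold enrichment and p-value of each peak, had a median of 12 (quartiles 8 and 22) at lincRNA starts, of 9 over all autosomal peaks and of 32 at protein-coding starts. At most 8 fragments stood behind 258 lincRNA-start peaks and at least 50 behind 72. Median width was 708 bp, against 587 bp over all autosomal peaks and 1014 bp at protein-coding starts. Single lincRNA-start peaks with few fragments are thus known only roughly in height.

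**Figure D2:**
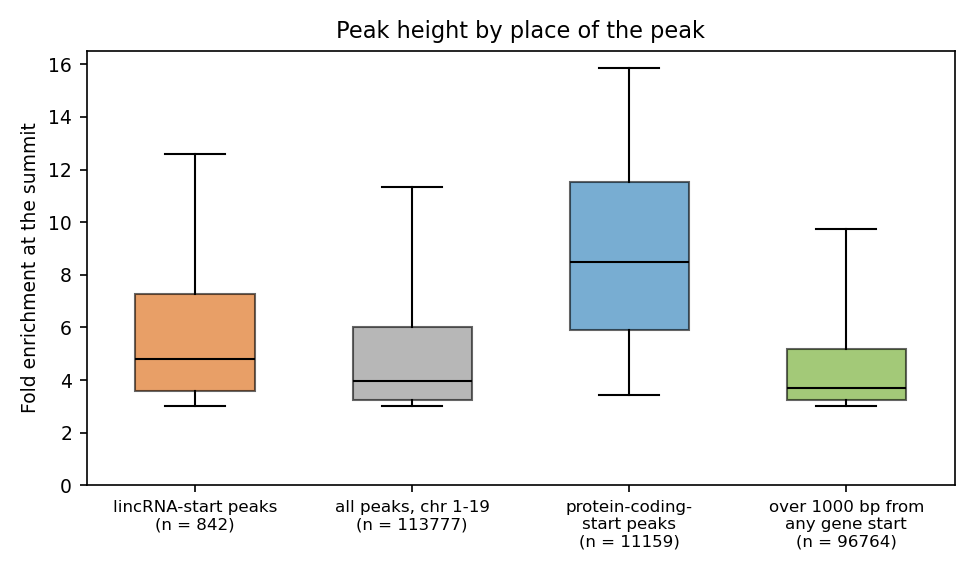
Boxes give quartiles and median of the fold enrichment at the summit, and whiskers the 5th and 95th percentiles, for 842 lincRNA-start peaks, all autosomal peaks, peaks within 500 bp of a protein-coding start and peaks more than 1000 bp from any gene start. The lincRNA-start median of 4.79 lies between those of distal peaks (3.70) and protein-coding-start peaks (8.497).

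The highest peak belonged to Gm6712 (chr17:17293781-17294633), with a fold enrichment of 23.2 from 158 fragments (95% Poisson interval 134 to 185). Its summit lay 309 bp upstream of the start. BC002059 (chr17:16950943-16951798) on the same chromosome had 19.6 from 140 fragments (118 to 165), its summit 285 bp upstream. Their fragment intervals overlap, so the order between both is not resolved.

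Gm5165, the other start of the set shown first, had 16.2 from 131 fragments with the summit 39 bp upstream. The start windows of Gm6712, BC002059 and Gm5165 were 92.6% to 94.96% identical among themselves. They matched the Zfp97 start at 96.6%, 94.8% and 93.8% identity over 233, 210 and 226 bases. The Zfp97 peak itself had a fold enrichment of 22.0 from 170 fragments with its summit 271 bp upstream of its start. All 4 starts of this set were thus highly accessible and had a summit upstream of the start.

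The authors placed a read with several equally good locations at 1 of them at random, so copies can share fragments. Around the summits, 68.7% of the 50-base words of Gm6712 and 71.8% of those of BC002059 occurred once in the genome. How many fragments of a peak came from another copy was not tested.

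Gm21814 (chr6:149565525-149566537) was the second highest peak, with 20.7 from 149 fragments (126 to 175), and all words around its summit occurred once. Gm32856 (chr8:129262927-129263888) had 16.5 from 187 fragments (161 to 216), the most of any lincRNA-start peak, with 65.5% of words found once. Both belong to a set of 6 related starts. Of these, A430073D23Rik, Gm20939, Gm31793 and Gm32856 matched the Zfp932 start at 84.1% to 88.4% identity, and Gm21814 and Gm39469 joined the set through the other lincRNA starts. A430073D23Rik and Gm20939 also had peaks, with fold enrichments of 11.5 and 12.7, and Gm39469 and Gm31793 had none within 500 bp.

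The nearest summit to Gm31793 lay 530 bp upstream, just past the limit, with a fold enrichment of 5.08. Its start window was 95.4% identical to that of Gm32856, the closest pair of the set. The nearest summit to Gm39469 lay 5493 bp upstream. The closest pair of the set thus differed in height, with 16.5 at Gm32856 and 5.08 at the summit nearest to Gm31793. The peak at the Zfp932 start had a fold enrichment of 13.6 from 57 fragments.

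The other peaks among the 10 highest were those of Gm14133 (17.7 from 65 fragments), Gm5444 (17.5 from 78), AL805899.1 (17.5 from 87), Gm17768 (17.3 from 67), Gm26611 (16.5 from 128) and Gm47599 (16.4 from 91). AL805899.1 had a CpG-rich start, with a CpG observed over expected of 1.01, while Gm14133 (0.144) and Gm5444 (0.163) were poor in CpG. The start of Gm17768 was 93.0% identical to that of Gm2381, a protein-coding gene. Of the 10 highest, 4 starts matched a protein-coding start and 3 of these a gene named Zfp, against 14 such Zfp-like starts among all 4870 lincRNA starts, 8 of them with a peak.

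The lowest fold enrichments were those of Gm26664 (2.40), 5033428I22Rik (2.49), 4930512J16Rik (2.58), Gm28981 (2.60) and Gm28707 (2.61), from 11 to 23 fragments over a local background of 3.66 to 9.0. The widest peaks were at AC129309.1 (2311 bp), Gm10605 (2301 bp), Gm27032 (2229 bp), AC091309.7 (2212 bp) and Gm27017 (2076 bp). These wide peaks had fold enrichments from 3.10 (AC129309.1, 6 fragments) to 7.47 (Gm27017, 25 fragments). The Gm10605 summit lay in an exon of Tpbgl and the Gm27032 summit near the gene of the neural microRNA Mir124a-3.

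Sharing of start sequence was then described for all lincRNA starts. Start windows of 301 bases were joined into a family where they matched in the same orientation at 80% identity or more over at least 150 bases. This gave 107 families holding 478 starts, of which 77 had a peak (16.1%, 13.1 to 19.7), against 769 of 4392 starts in no family (17.5%, 16.4 to 18.7). The families were of unlike kinds. The 8 families of 10 or more starts held 206 starts, of which 15 had a peak (7.28%, 4.46 to 11.7), and consisted mostly of soft-masked sequence, the lower-case bases that mark repeats in the genome file.

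Of the family starts with a window more than 50% soft-masked, 40 of 358 had a peak (11.2%, 8.31 to 14.9). At 50% or less, 37 of 120 had one (30.8%, 23.3 to 39.6). One family of 27 starts, all bases soft-masked in the median window, had none with a peak. In 9 of these 27, the nearest summit lay more than 500 and at most 1000 bp downstream, the closest at 705 bp, with fold enrichments of 3.12 to 15.9, against 7.81% of all starts with no peak that had a summit in the 500 bp past the limit. Starts of a family share sequence and can share randomly placed reads, so the intervals over family members are too narrow.

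Among 8 families of at least 3 starts with a median of at most 20% soft-masked bases, 17 of 31 starts had a peak, and the families were either largely accessible or not at all. All 4 starts of the family of Gm7762 had a peak, with fold enrichments from 3.61 at one copy of Gm10479 to 6.25 at Gm7762. All 4 starts of the family of Gm17514, Gm26715, Gm26754 and Gm40988, which lie near each other on chromosome 13, had one, from 3.44 to 13.8. In contrast, 3 families with 11 starts in all had none. The 5 starts of one of these, among them Gm26763 and 1700030F04Rik, were 88.8% to 95.9% identical and lay 14161 to 325071 bp from the nearest summit.

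Another set shared its start with Asap2, a protein-coding gene on chromosome 12. 2410018L13Rik (96.7% identity, fold enrichment 9.43) and Gm4425 (91.4%, 10.3) had a peak. Gm5784, at 98.6% identity the closest to Asap2, had its nearest summit 95279 bp away, and 30.2% of its words occurred once in the genome. Whether reads of Gm5784 were placed at another copy was not tested.

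Over all lincRNA starts, 316 matched a protein-coding start at this identity. With at most 50% soft-masked bases, 21 of 56 had a peak (37.5%, 26.0 to 50.6), and above that 23 of 260 did (8.85%, 5.97 to 12.9). Where the less masked start resembled a protein-coding start that had a peak, 17 of 31 had one (54.8%, 37.8 to 70.8). Where it resembled one without a peak, 4 of 25 did (16%, 6.40 to 34.7). These starts are not independent, since up to 4 of them resemble the same gene. Counted by gene, 10 of the 18 accessible protein-coding genes had at least 1 resembling lincRNA start with a peak, and 4 of the 23 genes without a peak did. Reads that match several copies were placed at random, and their part in peaks shared by a gene and its copies was not tested.

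**Figure D3:**
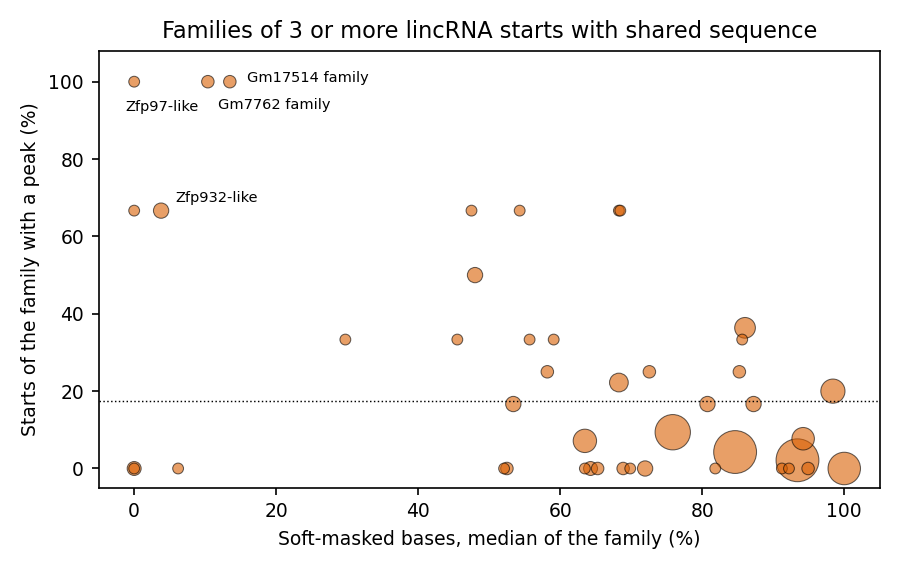
Each circle is a family of 3 or more lincRNA starts with shared sequence, placed by the median percent of soft-masked bases (horizontal) and the percent of its starts with a peak (vertical), with the area proportional to the number of starts. The dotted line is the 17.4% of all lincRNA starts. Of the 8 families of 10 or more starts, all with over 50% soft-masked bases, 7 lie at 0 to 20% and 1 of 11 starts at 36.4%. The labelled families with few masked bases lie at 66.7% or 100%, and 3 unlabelled families with at most 20% masked bases lie at 0%.

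CpG content was higher in the median at starts with a peak than at those with none, with wide overlap. It was measured as the observed over the expected number of CG dinucleotides in 501 bp around the start, where a value near 1 means no loss of CG. The median was 0.351 at lincRNA starts with a peak (quartiles 0.211 and 0.525), 0.206 at those with none (0.122 and 0.308) and 0.782 at protein-coding starts with a peak. GC content was 51.1% against 46.3% in the median. The quartile ranges of starts with and without a peak overlap, so most single starts cannot be placed by CpG alone.

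The share of lincRNA starts with a peak was higher in each higher range of CpG content, and the intervals of neighbouring ranges did not overlap. It was 9.13% (7.98 to 10.4) below 0.2, 15.9% (14.3 to 17.7) from 0.2 to 0.4, 32.5% (28.8 to 36.4) from 0.4 to 0.6, 53.6% (46.0 to 60.9) from 0.6 to 0.8 and 72.4% (62.9 to 80.3) at 0.8 or more. Protein-coding starts of the same ranges had a peak in 6.87%, 25.3%, 66.8%, 87.3% and 91.9%. The 95% intervals of both gene types did not overlap in any range. The lincRNA share was the higher one only below 0.2, and the lower one in the 4 other ranges. Only 266 of the 4870 lincRNA starts lay at 0.6 or more, and these gave 161 starts with a peak. The share with a peak was also higher in each higher range of GC content, from 3.29% (2.12 to 5.09) under 40% GC to 12.1%, 28.3% and 77.5% (69.9 to 83.7) in the ranges from 40%, 50% and 60%, and CpG and GC content were not separated.

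Height was greater at CpG-rich starts too. The median fold enrichment of lincRNA-start peaks was 4.13 below 0.2, 4.17 from 0.2 to 0.4, 5.08 from 0.4 to 0.6, 5.73 from 0.6 to 0.8 and 7.51 at 0.8 or more. At protein-coding starts it was 4.01, 5.30, 7.09, 9.18 and 9.41 in the same ranges. Median width went from 628 bp to 1041 bp at lincRNA starts between the lowest and the highest range. In the lowest range, peaks at both gene types had a median of 9 fragments.

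**Figure D4:**
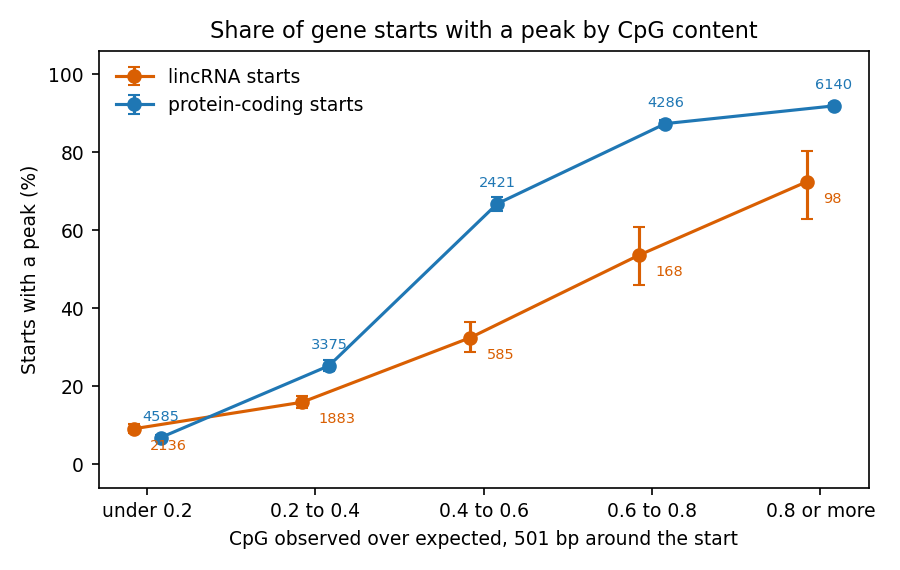
Points give the percent of gene starts with an ATAC summit within 500 bp by CpG observed over expected in 501 bp around the start, with 95% Wilson intervals and the number of starts printed beside each point. The lincRNA share climbs from 9.13% to 72.4% and lies under the protein-coding share in all ranges but the lowest.

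Soft-masked bases made up a mean of 18.4% of the window at starts with a peak and 23.1% at those with none. Starts with no soft-masked base had a peak in 23.6% (20.2 to 27.4, n = 525), and those with 60% or more in 11.5% (8.91 to 14.7, n = 470). In both classes, 81.4% and 81.6% of starts had only 50-base words that occur once in the genome. Over starts whose words all occurred once, the difference in mean soft-masked bases was −2.54 percentage points, in place of −4.67 over all starts.

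Letter motifs were searched on both strands in 301 bases around each summit or start. GGGCGG, the GC box bound by SP and KLF factors, lay in 27.3% of lincRNA-start peaks (24.4 to 30.4), 5.74% of lincRNA starts with no peak (5.07 to 6.51), 19.2% of all autosomal peaks and 67.6% of peaks at protein-coding starts. GGGNGGGG, which can overlap it, lay in 28.98%, 13.2%, 20.9% and 47.4% of the same windows. CCGGAAG, a site of ETS factors, lay in 8.55% (6.85 to 10.6), 2.36% (1.94 to 2.88), 4.89% and 16.02%. Centred on the gene start instead of the summit, the 846 starts with a peak held GGGCGG in 22.8%, GGGNGGGG in 29.2% and CCGGAAG in 8.63%. For these motifs the lincRNA-start peaks stood between peaks in general and peaks at protein-coding starts. The shares of these and the following motifs were not adjusted for base composition. Median GC content was 51.1% at lincRNA starts with a peak, 46.3% at those with none and 62.7% at protein-coding starts with a peak.

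ATTTGCAT, the octamer bound by POU factors such as OCT4, lay in 4.04% of lincRNA-start peaks (2.90 to 5.59), 1.62% of starts with no peak, 3.0% of all autosomal peaks and 1.27% of peaks at protein-coding starts. The interval at lincRNA starts includes the value of all autosomal peaks. Centred on the gene start, the octamer lay in 2.48% of the 846 starts with a peak (1.63 to 3.76), which overlaps the interval of starts with no peak (1.27 to 2.05). TATAAA, the TATA box, was less frequent in lincRNA-start peaks (9.62%, 7.81 to 11.8) than around starts with no peak (16.01%, 14.9 to 17.2). Centred on the gene start, it lay in 9.10% of the 846 starts with a peak (7.34 to 11.2). All autosomal peaks held it in 11.8%, a value within the interval of lincRNA-start peaks, and peaks at protein-coding starts in 4.08%. CCAAT lay in 35.7%, 37.7%, 36.1% and 35.3% of the windows in the order above, so it was about as frequent in lincRNA-start peaks as in the others. Every printed zinc finger start held it, but these starts share sequence. TTCCGGA, picked from the starts shown first, lay in 3.92% of lincRNA-start peaks (2.80 to 5.45), 0.995% of starts with no peak, 2.83% of all autosomal peaks and 5.01% of peaks at protein-coding starts. Its interval at lincRNA starts also includes the value of all autosomal peaks.

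Of the other motifs, AAGATGGC, a YY1 site, lay in 2.85% of lincRNA-start peaks and 5.00% of all autosomal peaks. ACAAAG, resembling SOX sites, lay in 23.5% and 23.8%, and TCAAGGTCA, an ESRRB site, in 0.713% and 1.07%. TGACGTCA, the cAMP response element, lay in 0.831% and 0.642%. The searched words for NRF1 and CTCF lay in 0.119% and 0.475% of lincRNA-start peaks and 0.236% and 0.582% of all autosomal peaks.

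Distance to the nearest protein-coding start was compared as well. The share with a peak was 12.5% (7.13 to 21.01) at 1 to 2 kb, 16.4% (11.9 to 22.2) at 2 to 5 kb, 21.2% (18.4 to 24.2) at 5 to 20 kb, 20.5% (18.7 to 22.5) at 20 to 100 kb and 13.4% (11.9 to 14.9) beyond 100 kb. Starts under 5000 bp exceeded those over 100000 bp by 1.83 percentage points, with a 95% interval of −2.20 to 6.69, so that difference was not detectable. Starts with no other peak within 50 kb had one themselves in 7.10% (4.20 to 11.8, n = 183), and those with 10 or more in 27.6% (24.1 to 31.3, n = 577).

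Genes with a single exon had a peak in 11.3% (8.09 to 15.6, n = 274), those with 2 in 16.2%, with 3 in 18.5%, with 4 in 20.8% (18.1 to 23.9) and with 5 or more in 16.98%. By chromosome the share ran from 11.7% on chromosome 14 to 25.8% on chromosome 17 (20.4 to 32.1), the chromosome of the Zfp97-like starts. Of starts with no peak, 314 had a summit more than 500 and at most 1000 bp away and 1594 had none within 10 kb.

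LincRNAs that were listed by name for a role in pluripotent cells were accessible at 11 of 24 starts, against 17.4% of all lincRNA starts, with 2 more near a protein-coding start and 11 with no peak, and a median fold enrichment of 6.31. Most of them are Platr genes, named as pluripotency-associated transcripts. Of 20 Platr starts, 8 had a lincRNA-start peak. The highest was Platr11 (chr9:118405970-118406609), with 13.6 from 55 fragments (41.4 to 71.6) and the summit 165 bp upstream. Platr26 had 11.0 from 37 fragments, Platr22 had 9.43 from 65, Platr27 had 6.56, Platr13 had 6.31, Platr10 had 5.03, Platr4 had 4.97 and Platr1 had 3.79. Platr starts were mostly poor in CpG, with a median observed over expected of 0.274, and Platr11 (0.341) and Platr26 (0.177) were no exception. This is not particular to them, since the median was 0.206 at lincRNA starts with no peak and 0.351 at those with one.

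Of the 10 Platr starts with no peak, 7 had a summit within 2000 bp. Over all 4022 lincRNA starts with no peak, the nearest summit lay at a median of 7169 bp, with a lower quartile of 2636 bp. The nearest summit lay 642 bp away for Platr2 (fold enrichment 8.47) and 1519 bp upstream for Platr7 (11.8). Of the 8 Platr starts with a peak, 4 had more than 50% of the start window soft-masked, namely Platr13 (76.8%), Platr1 (76.2%), Platr10 (68.3%) and Platr27 (53.9%). Over all 842 lincRNA-start peaks, 9.03% had more than 50% of the window around the summit soft-masked. Among Platr starts with no peak, Platr15 (97.6%), Platr28 (76.2%) and Platr5 (59.1%) also exceeded 50% of the start window. Only 10.7% of the words around the Platr13 start occurred once in the genome.

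1700020I14Rik (Cyrano), a strongly conserved lincRNA that pairs with the microRNA miR-7, had a CpG-rich start and a fold enrichment of 11.7 from 30 fragments (20.2 to 42.8). 2900097C17Rik, known as Norad, which binds PUMILIO proteins, had 5.28 from 12 fragments, with 2.38% of the words around its summit found once. Lncenc1, a lincRNA of naive stem cells, had 2.81 from 12 fragments (6.20 to 20.96), higher than 1.18% of all autosomal peaks. Mir17hg, the host of a growth-promoting microRNA cluster, counted as without a peak because its nearest summit lay 573 bp upstream, with 7.49 from 55 fragments.

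Among lincRNAs tied to growth, stress or nuclear bodies, 7 of 13 starts had a peak, against 17.4% of all lincRNA starts. Another 2 had only one near a protein-coding start and 4 had none. The median CpG observed over expected of the 13 starts was 0.656. From 0.6 to 0.8, 53.6% of all lincRNA starts had a peak. The median fold enrichment of the 7 was 5.38. Snhg6 was the highest with 9.64 from 47 fragments (34.5 to 62.5). Pvt1, the neighbour of Myc, had 5.73, Ptgs2os2 had 5.48, Lncpint, a p53-regulated lincRNA, had 5.38, Epb41l4aos had 5.32, Snhg12 had 3.95 and Trp53cor1 (lincRNA-p21) had 3.13. Malat1 and Neat1, abundant nuclear RNAs, had none within 500 bp of the annotated start, and their nearest summits lay 1014 bp and 1390 bp upstream with 5.70 and 3.44. Miat (764 bp) and Snhg20 (681 bp) had a summit in the same range downstream. All 4 starts called without a peak in this group thus had a summit within 2000 bp. The lower quartile of this distance over all lincRNA starts with no peak was 2636 bp.

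Of 7 host genes of microRNAs, 4 had a peak, against 17.4% of all lincRNA starts. Mir155hg, host of an immune microRNA, had 6.72 from 26 fragments, Mir9-3hg had 5.74 with its summit 487 bp upstream, Mir142hg had 3.94 and Mir124a-1hg had 3.49. Mir670hg and Mir124-2hg had none. Of 8 developmental lincRNAs, 3 had a peak, against the same 17.4%, namely Bvht (5.28), Halr1 (3.57) and Otx2os1 (2.83). Lhx1os and Pantr1 had only one near a protein-coding start, and Hotair, Hottip and Rmst had none. Hotair and Hottip, which arise from Hox clusters, had their nearest summits 2053 bp and 1917 bp upstream. The Hottip start lay 1895 bp from the nearest protein-coding start, and whether its nearest summit belongs to that gene was not tested.

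The imprinted lincRNAs H19, Meg3 and Mirg had no peak at the start. The nearest summit was 992 bp downstream for Meg3, with a fold enrichment of 2.81 from 9 fragments, and 33092 bp away for H19. In these lists, which are small, the members with a peak numbered 25 of 54 starts, against 17.4% of all lincRNA starts, and the lists were made of well-studied genes, so these counts do not stand for lincRNAs at large. The 17.4% covers only starts more than 1000 bp from a protein-coding start, whereas 6 of the 54 had only a peak near one. The median CpG observed over expected of the 54 starts was 0.436. From 0.4 to 0.6, 32.5% of all lincRNA starts had a peak.

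**Figure D5:**
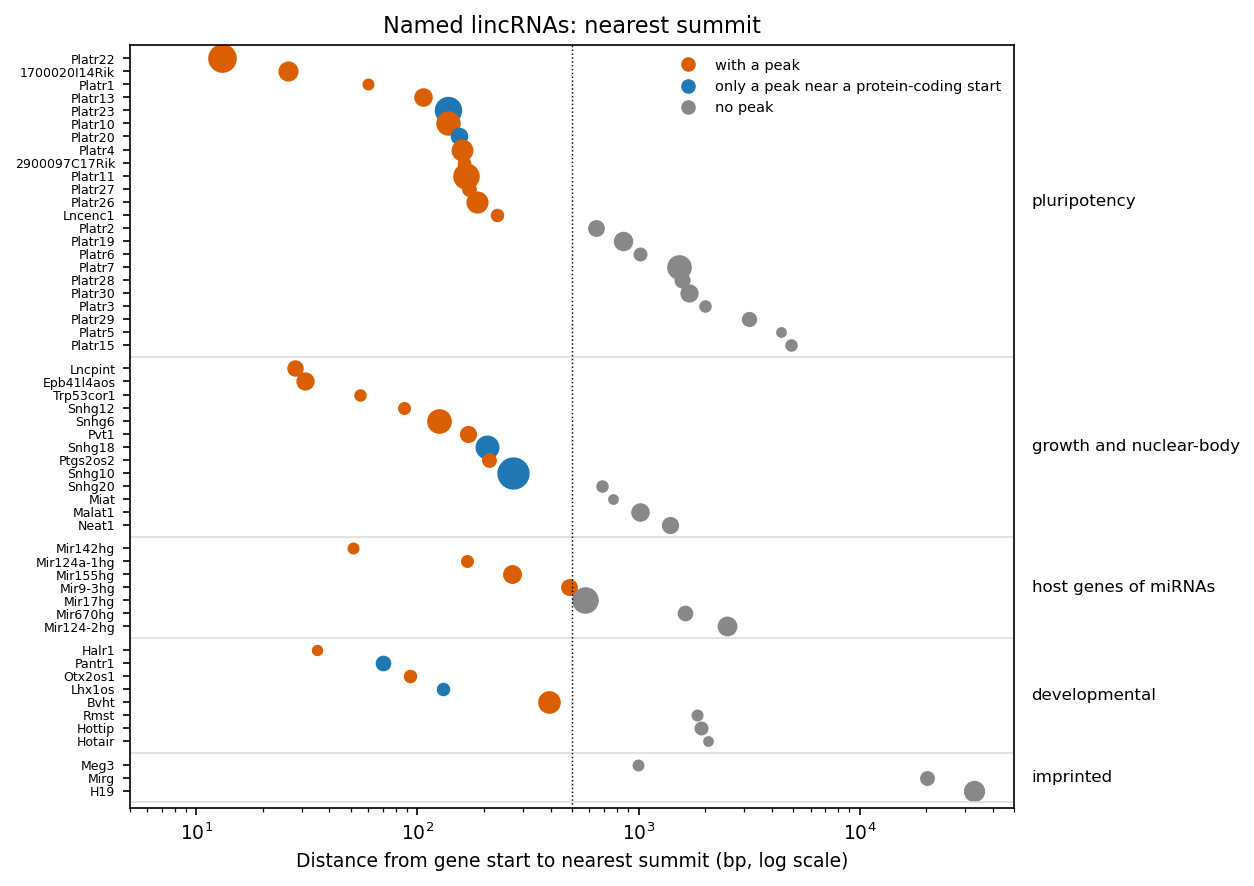
Each point is a named lincRNA at the distance from its start to the nearest summit in bp, on a logarithmic axis, with the area proportional to the fragments over that summit and lists separated by lines; Mir17hg, in 2 lists, is drawn once. Orange points had a lincRNA-start peak, blue points only a peak near a protein-coding start and grey points none within the 500 bp marked by the dotted line. Most grey points lie between 573 and 4893 bp, and Mirg and H19 at 20289 and 33092 bp.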

How the data were processed

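ATAC-seq libraries of 2 clones of DMSO-treated EHMT2-dTAG mESCs were analysed. Per the labels and the study's methods, the authors used BBMap for trimming and STAR 2.7.10 for alignment to mm10, writing each multimapping read at 1 best location with ties at random, removed duplicates (Picard 2.26.0) and blacklisted regions, shifted fragments for Tn5 and called peaks with MACS2 2.2.6 (SAMtools 1.14 and bedtools 2.30.0 are also named). The deposited list is merged over both clones. The authors computed its fold enrichment with MACS2 as a ratio of summit pileup to local background, each with a pseudocount of 1. The −log10 p-values and −log10 q-values were computed by the authors with MACS2 at the summit. The deposited score was made by the authors with MACS2 from the p-value and was not used.

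Library totals were not analysed here. Fragments over a summit were solved from fold enrichment and p-value with the MACS2 formulas, which recovered 100% of 2000 simulated peaks and gave whole numbers for 113776 of 113777 autosomal peaks (within 0.001 in −log10 p). GENCODE release 21 gave gene starts, whereas the study used a later release. Shares have 95% Wilson and fragments 95% Poisson intervals. No test was made. Content was measured in 501 bases, and 50-base words were counted genome-wide. Start windows were aligned with BLAST 2.17.0 (E-value 1e-10), with Python 3.11.15, NumPy 2.4.6, pandas 2.3.3, SciPy 1.17.1, networkx 3.6.1 and matplotlib 3.10.9. Sequences came from GRCm38.p6, and RefSeq starts from the same build.

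Named are the 10 highest, 5 lowest and 5 widest peaks, all lincRNAs of the lists and members of sequence families chosen after their values were seen. Members and lists were chosen with earlier results of these data known.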

Additional observations from a re-analysis of the deposited data

How the results depend on the processing

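No paired analysis was possible because the merged list gives no value per clone and no test was made. The results were recomputed with −log10 q-values of 10 or more, windows of 250 and 1000 bp, 5000 bp from protein-coding starts, all annotated transcript starts, annotation level 1 or 2 with at least 2 exons, and without chromosome 8. Content was also taken within 500 bp of the start. An alternative chosen after seeing the data used only starts or summits whose 50-base words all occurred once in the genome. No direction reversed.

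At −log10 q-values of 10 or more, the peaks numbered 260, starts with a peak made up 5.42%, and the median fold enrichment was 8.92 from 32 fragments. The CpG difference was then 0.2195 in place of 0.145, and the difference in soft-masked bases −7.94 in place of −4.67 percentage points, by construction among the stronger peaks only. A window of 250 bp gave 12.3% and one of 1000 bp gave 23.7% of starts with a peak. With only words found once, the difference in soft-masked bases shrank to −2.54 points, while the share with a peak was 17.4% and the CpG difference 0.141. The median distance from the start was not recomputed for other windows, and the comparison by distance to protein-coding starts has no value at 5000 bp, where its near class is empty.

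The median of 12 fragments limits how finely single peaks can be ranked, and a start without a peak may have fallen short of the threshold at this depth.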

Other observations

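A few lincRNA-start peaks lay inside protein-coding genes or beside other small genes. The summit was inside a protein-coding gene for 57 of the 842 peaks (6.77%, 95% Wilson interval 5.26 to 8.67). The start of a gene of another type lay within 500 bp for 31, among them Rn7sk, which encodes the 7SK RNA that holds P-TEFb inactive, Rnu11, a spliceosomal RNA of the minor class, and Mir202. An antisense gene start lay within 500 bp in 1 case. These peaks cannot be assigned to 1 of the genes from the list alone. The genes were named after their values were seen.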
